A study of Mus musculus with 4 samples.

Results

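Barx1, Osr1, Osr2, Msx1, Msx2, Pax9, Pitx1, Lhx6 and Lhx8, transcription factors that act in the embryonic jaw where teeth form, were followed in sorted cells of mouse molar pulp against sorted cells of mouse incisor pulp. They were chosen by symbol, with earlier results of these data known. All 9 had a row of their own among 23712 single-gene symbols of the authors' deposited table. The cells came from molars (2 libraries) and incisors (2 libraries) of XLacZ4 mice, a reporter line in which pericytes and vascular smooth muscle cells make bacterial beta-galactosidase, and every library carries that transgene. Teeth were dissociated to single cells, and cells that turned fluorescent with FDG, a substrate of the enzyme, were sorted before RNA was sequenced. The labels give neither the age nor the number of animals, and they do not say if the libraries of 1 tissue are from different mice. The table holds 1 value per gene and tissue in FPKM (fragments scaled to transcript length and to sequencing depth), with the libraries of a tissue already combined, so no replicate error can be given and the depth is unknown.

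In the mouse embryo the jaw is laid out by homeobox genes that respond to FGF and BMP signals from the oral epithelium. Barx1 is switched on in the mesenchyme of the future molars, while Msx1 and Msx2 mark the mesenchyme of the future incisors at the same early stage. Once a tooth bud forms, Msx1 and Pax9 keep Bmp4 active in its mesenchyme, Osr2 limits the field on the lingual side, and Lhx6 and Lhx8 are needed together for molars. The mouse incisor grows throughout life and the molar does not.

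The sorted cells were a mixture, and these levels are given once for all results below. Mural cell markers summed to 1243 FPKM in molar and 1234 FPKM in incisor over 15 genes, with 3 called higher in each tissue, and no mural marker was listed at 0. Their leading genes were Cox4i2 (762 in molar, 385 in incisor) and Rgs5 (127 in molar, 537 in incisor). Mesenchyme markers summed to 8260 FPKM in molar and 5104 FPKM in incisor over 15 genes, led by Lum (2779 in molar, 1551 in incisor) and Sparc (2484 in molar, 1228 in incisor), and of these 15 genes 2 were called with a higher molar value and 4 with a higher incisor value. Dental epithelium markers summed to 2645 FPKM in molar and 23548 FPKM in incisor, with 10 of 15 called higher in incisor and 0 higher in molar, also 0 at an unadjusted p under 0.05. Endothelial markers summed to 306 FPKM in molar and 21.7 FPKM in incisor, with 11 of 12 called higher in molar and Cldn5 listed at 0 in incisor. Early response genes, which cells can switch on during handling, summed to 7127 FPKM in molar and 699 FPKM in incisor, with 10 of 12 called higher in molar. Whether handling raised them here was not tested. The shares called over all tested rows were 11.9% toward molar and 4.28% toward incisor. Over all rows, FPKM summed to 815089 in molar and 539574 in incisor, and the marker sums were not scaled for that difference. Macrophage markers summed to 9802 FPKM in molar and 6109 FPKM in incisor. Odontoblast and osteoblast markers summed to 484 FPKM in molar and 755 FPKM in incisor. Glial markers came to 63.0 FPKM in molar against 53.7 FPKM in incisor, led by Fabp7 (56.9 in molar, 21.0 in incisor). Of 8 glial markers, 3 had the higher value in molar and 5 in incisor, and of 6 tested, 1 was called toward molar and 0 toward incisor. Neuronal markers came to 37.8 FPKM in molar against 67.8 FPKM in incisor, led by Tubb3 (30.1 in molar, 65.5 in incisor). Of 10 neuronal markers, 6 had the higher value in molar and 3 in incisor, and of 9 tested, 2 were called toward molar and 0 toward incisor. The part of these differences in the results below was not tested. With bulk RNA, fewer cells of a type and less RNA per cell cannot be told apart.

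The 9 genes stood higher in molar in 8 cases and higher in incisor in 1 case, Lhx6. A gene is named called where the q value in the authors' deposited table lies under 0.05. Of the 8 tested genes, Barx1, Osr2 and Msx1 were called higher in molar, while 11.9% of all 18770 tested rows were. No gene of the 9 was called higher in incisor, where the share of all tested rows called was 4.28%. The count toward incisor was also 0 at an unadjusted p under 0.05 in the authors' deposited table. No share over all tested rows was computed for that direction at that threshold. Msx2 and Pax9 had unadjusted p-values of 0.0342 and 0.0203 in the authors' deposited table and were not called, so 5 of 8 genes passed an unadjusted p under 0.05 toward molar, against 17.9% of all tested rows. Toward molar, 2 of the 8 passed q under 0.01 (8.8% of all tested rows) and 3 carried the authors' own mark of significance (12.7%). The median log2((FPKM + 1) ratio), molar over incisor, was 1.07 over the 8 tested genes and 0.21 over all tested genes. Since the genes were chosen with earlier results of these data known, their comparison with all genes is a description only. Pitx1 was not tested by the authors.

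**Figure D1:**
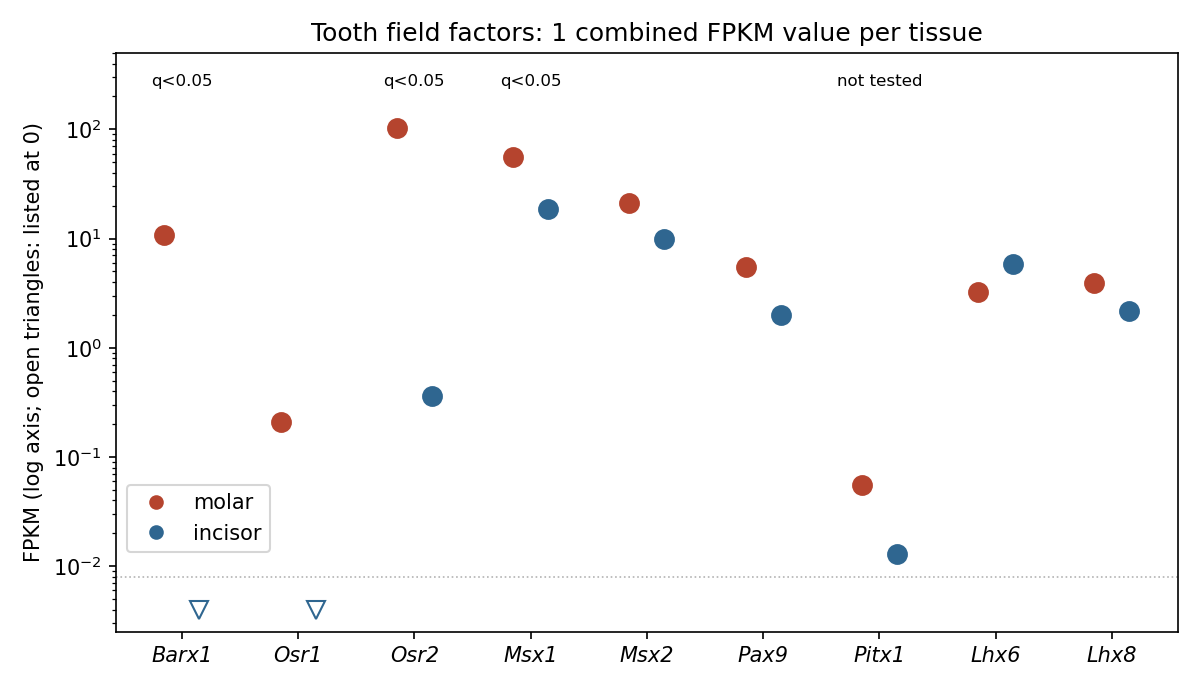
FPKM of each tooth field factor in molar (red, left point of each pair) and incisor (blue, right point) on a log axis, 1 combined value per tissue, with open triangles for values listed at 0. Osr2 stands at 103 in molar and 0.361 in incisor, and Lhx6 is the gene with the higher value in incisor.

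Osr2 had the widest fold difference of those of the 9 genes with a value above 0 in both tissues. Osr2 encodes a zinc finger protein whose loss gives mice extra teeth beside the molars, and it lies on mm10 at chr15:35296112-35303305 with 4 exons on the plus strand. It stood at 103 FPKM in molar and 0.361 FPKM in incisor, 284-fold higher in molar. The size of that fold rests on the low incisor value, and the log2 ratio was 6.25 with a pseudocount of 1 and 4.33 with a pseudocount of 5. The authors' deposited table gives it a log2 fold change of 8.15 and q = 0.000664, the lowest q that the table holds and one shared by 1414 rows. Osr2 ranked 34th by log2 fold among the 15741 tested genes above 0 in both tissues. Its molar level lay above that of 93.6% of tested genes, and its incisor level above that of 29.3%. Among the 7388 tested genes under 1 FPKM in incisor, it had the 7th highest molar FPKM.

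Osr1, the close relative of Osr2, is best known for its role in embryonic kidney and heart and lies at chr12:9574442-9581500. Its molar value was 0.210 FPKM and its incisor value a listed 0, without a call (q = 0.252 in the authors' deposited table). No ratio of Osr2 to Osr1 is given, since both Osr1 values are too low to read one from. The stretches of 120 coding bases in which the 2 genes are most alike lie inside their zinc finger regions and are given for context. Capitals mark the bases at which they differ.
Osr2: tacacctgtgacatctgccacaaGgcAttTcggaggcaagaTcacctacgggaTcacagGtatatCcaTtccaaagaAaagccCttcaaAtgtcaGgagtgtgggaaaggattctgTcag
Osr1: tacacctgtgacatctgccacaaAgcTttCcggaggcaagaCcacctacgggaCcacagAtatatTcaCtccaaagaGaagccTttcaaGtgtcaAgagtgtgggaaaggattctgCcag
The Osr2 stretch comes from exons 2 and 3 (chr15:35300897-35301972, plus strand) and the Osr1 stretch from exons 2 and 3 (chr12:9579735-9580550, plus strand). They are identical at 107 of 120 positions, and the longest run that the whole coding sequences share is 23 bases. No 32-base word of the Osr2 transcript occurs in a transcript of another gene in GENCODE M21, Osr1 included.

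Barx1 was called higher in molar with no incisor signal in the table. It encodes a homeodomain protein, forced expression of which in mouse incisor mesenchyme gives teeth of molar form, and it lies at chr13:48663036-48666507 with 4 exons on the plus strand. Its molar value was 10.9 FPKM and its incisor value a listed 0. The authors' deposited table gives Barx1 q = 0.000664. No fold change is given against a listed 0, and the value does not show that the gene was absent from incisor. Of 2734 tested genes listed at 0 in incisor, Barx1 had the 5th highest molar FPKM, and 222 of them were called. A listed 0 was rarer in molar, where 142 tested genes had one. None of its 32-base words occurs in a transcript of another gene.

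Many genes carried a low molar value and a 0 in incisor, so low levels were read against a gene class that pulp is not known to use. Of 1469 genes for olfactory, vomeronasal and taste receptors, 1219 were above 0 in molar and 51 in incisor. Their 99th percentile was 3.81 FPKM in molar and 0.137 FPKM in incisor, and the highest value was 7.94 in molar and 4.61 in incisor. The molar values of Osr2, Msx1, Msx2 and Barx1 lay above every one of these receptor genes. Pax9 had 3 receptor genes at or above its molar level, Lhx8 had 14, Lhx6 had 21, Osr1 had 447 and Pitx1 had 1095, so the molar values of Lhx6, Osr1 and Pitx1 lay under the 99th percentile of that class. The incisor value of Osr2 had 8 receptor genes at or above it. What this receptor signal contributes to other genes was not tested.

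**Figure D2:**
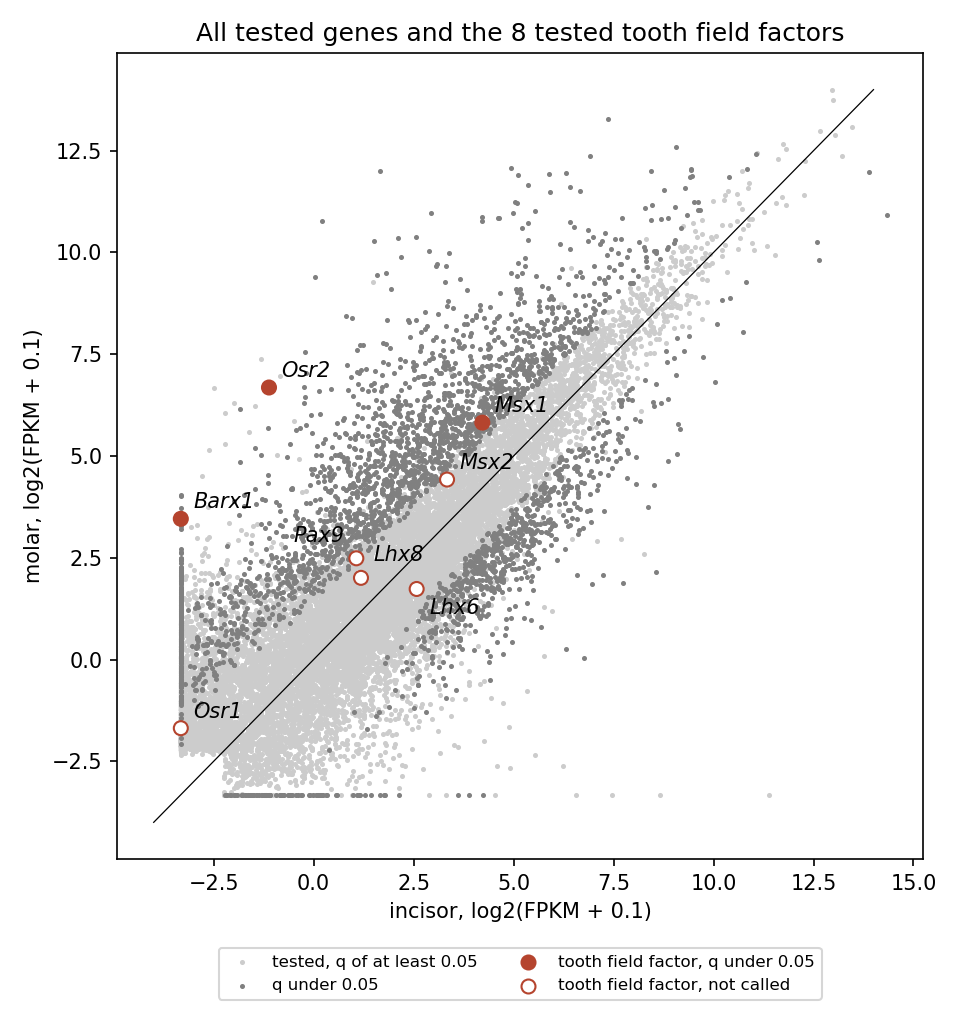
Molar against incisor level of every tested gene on a log2(FPKM + 0.1) scale, with genes at q under 0.05 in dark grey, called tooth field factors as filled red points and uncalled ones as open red points, and equality as a line. Osr2 and Barx1 lie at the upper left edge of the cloud, and Lhx6 is the factor below the line.

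Msx1 and Msx2 were the most abundant of the 9 genes in incisor and ranked after Osr2 in molar. Msx1, a homeodomain repressor without which mouse teeth arrest as buds, lies at chr5:37820491-37824585 on the minus strand with 2 exons. It stood at 56.4 FPKM in molar and 18.5 FPKM in incisor, 3.04-fold higher in molar. The authors' deposited table gives Msx1 a log2 fold change of 1.61 with q = 0.0157. Msx2, its relative with roles in enamel-forming epithelium and skull bone, lies at chr13:53466881-53472780 and stood at 21.3 FPKM in molar and 9.998 FPKM in incisor. Its log2 fold change of 1.09 was not called (q = 0.143 in the authors' deposited table). The difference between the 2 genes' fold changes was not tested. Msx1 exceeded Msx2 by 2.64 times in molar and 1.85 times in incisor, a ratio that scaling between tissues cannot move.

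No 32-base word of Msx1 occurs in another gene's transcript, and 1.00% of those of Msx2 do. An opposite-strand gene, Msx1os, has the same interval as Msx1 in the authors' deposited table and stood at 0.706 FPKM in molar and 0.959 FPKM in incisor. Whether the libraries keep strand is not given, so reads of Msx1 and Msx1os cannot be told apart with certainty.

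The bases upstream of the start of Barx1 and Msx1, called genes with an entry among the RefSeq promoters of GRCm38.p6, are given for context. Of the 9 genes, 6 had an entry there, and Osr1, Osr2 and Pitx1 had none. Capitals mark matches on either strand to the GC box GGGCGG and the CCAAT box CCAAT, and overlapping matches run together.
Barx1: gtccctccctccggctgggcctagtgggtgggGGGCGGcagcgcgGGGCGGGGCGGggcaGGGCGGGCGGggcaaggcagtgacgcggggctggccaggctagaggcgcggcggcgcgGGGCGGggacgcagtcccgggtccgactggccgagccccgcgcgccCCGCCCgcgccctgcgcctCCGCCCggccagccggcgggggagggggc
Msx1: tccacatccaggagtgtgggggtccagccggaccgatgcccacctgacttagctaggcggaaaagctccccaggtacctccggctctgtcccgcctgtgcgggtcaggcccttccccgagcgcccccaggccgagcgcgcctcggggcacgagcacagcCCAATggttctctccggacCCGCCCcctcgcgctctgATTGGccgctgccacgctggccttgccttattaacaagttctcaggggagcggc
The Barx1 sequence covers chr13:48662786-48662997 on the plus strand, is 212 bases long and has a G and C content of 85.4%. The Msx1 sequence covers chr5:37824586-37824835 on the minus strand, is 250 bases long and has a G and C content of 68.0%. Barx1 had 8 GC box matches and no CCAAT match, and GC boxes occurred in 27.2% of 32851 promoter windows of that length. Msx1 had 1 GC box and 2 CCAAT matches, which occurred in 32.7% and 33.8% of windows of its length. Neither held TATAAA, nor TAATTG, a core that homeodomain proteins of this kind bind.

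Pax9 and Pitx1 complete the factors of the early bud and field. Pax9, a paired-domain protein needed for teeth to pass the bud stage, stood at 5.503 FPKM in molar and 2.00 FPKM in incisor, 2.76-fold higher in molar. It was not called, with q = 0.0979 in the authors' deposited table. The row of Pax9 spans chr12:56695471-57197472, the same interval as that of Slc25a21, a mitochondrial carrier gene on the other strand whose end overlaps Pax9. Slc25a21 stood at 1.36 FPKM in molar and 0.247 FPKM in incisor, and 43 of the 4201 words of 32 bases in the Pax9 transcript also occur in it. Pitx1, a homeodomain factor of the hindlimb and the proximal jaw, lies at chr13:55825054-55831425 and stood at 0.0557 FPKM in molar and 0.0130 FPKM in incisor. The authors did not test it, and no fold is read from values this low.

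The LIM-homeodomain genes Lhx6 and Lhx8 differed in direction without being called. Lhx6, at chr2:36081953-36105408, stood at 3.22 FPKM in molar and 5.86 FPKM in incisor, with a log2 fold change of -0.86 and q = 0.257 in the authors' deposited table. Lhx8, at chr3:154306294-154330560, stood at 3.92 FPKM in molar and 2.17 FPKM in incisor, with a log2 fold change of 0.85 and q = 0.255 in the authors' deposited table. Lhx8 was thus 1.22 times Lhx6 in molar and 0.370 times Lhx6 in incisor, a log2 difference of 1.71 between the ratios that has no test. The stretches of 120 coding bases in which they are most alike lie in the homeobox region.
Lhx8: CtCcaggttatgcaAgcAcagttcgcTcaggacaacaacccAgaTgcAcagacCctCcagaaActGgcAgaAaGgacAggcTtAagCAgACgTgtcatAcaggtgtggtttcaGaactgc
Lhx6: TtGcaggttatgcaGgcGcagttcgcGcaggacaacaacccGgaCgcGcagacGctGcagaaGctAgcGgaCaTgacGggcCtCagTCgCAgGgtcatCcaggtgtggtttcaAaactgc
Capitals again mark differing bases. The stretches run over exons 6 to 8 on the minus strand in both genes, at chr3:154311706-154321632 for Lhx8 and chr2:36091119-36091611 for Lhx6. They are identical at 95 of 120 positions, and the longest shared coding run is 14 bases, against 23 for Osr2 and Osr1.

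The make-up of the group differed between the tissues, and shares of a sum do not depend on scaling between them. The 9 genes summed to 204 FPKM in molar and 38.9 FPKM in incisor, or to 101 FPKM in molar and 38.6 FPKM in incisor without Osr2. Osr2 held 50.3% of the sum in molar and 0.928% in incisor. Msx1 held 27.6% in molar and 47.6% in incisor, and Msx2 held 10.4% in molar and 25.7% in incisor. Lhx6 held 1.58% in molar and 15.1% in incisor. Shares of a sum move together, and without Osr2 the order turned round for Msx1, at 55.5% in molar and 48.02% in incisor, while Msx2 held 21.0% in molar and 25.9% in incisor and Lhx6 held 3.18% in molar and 15.2% in incisor. In molar the levels ran from Osr2 through Msx1, Msx2, Barx1, Pax9, Lhx8, Lhx6 and Osr1 to Pitx1. In incisor they ran from Msx1 through Msx2, Lhx6, Lhx8, Pax9 and Osr2 to Pitx1, with Osr1 and Barx1 listed at 0. With 1 value per tissue it cannot be said which neighbours in these orders differ beyond replicate error. The ratio of Msx1 to Pax9 was 10.2 in molar and 9.28 in incisor.

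**Figure D3:**
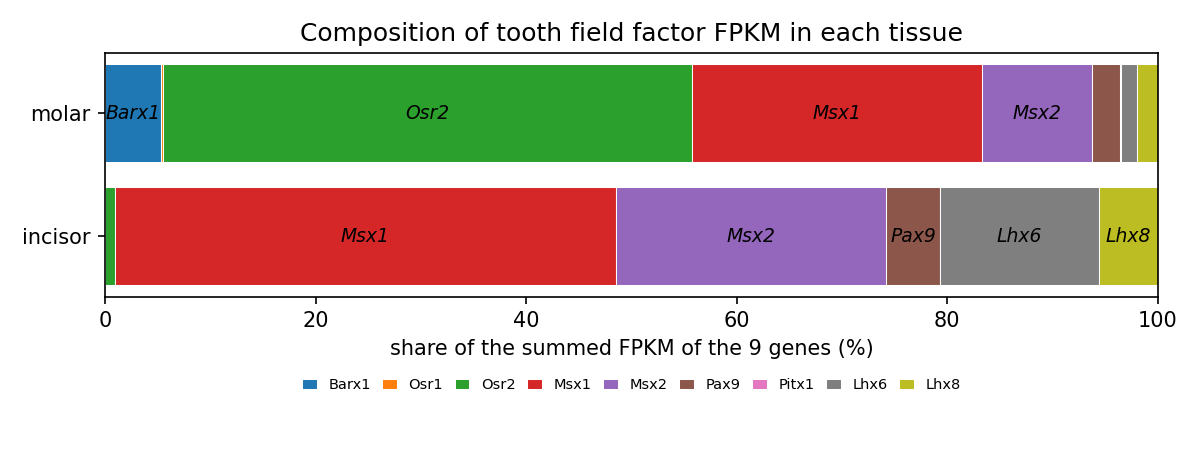
Share of each gene in the summed FPKM of the 9 tooth field factors, molar above and incisor below, 1 combined value per tissue. Osr2 takes 50.3% of the molar sum and 0.928% of the incisor sum, where Msx1 and Msx2 take the largest shares.

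Genes next to the 9 factors on the chromosome are given for context, and nothing about the factors is read from their count. Of 20 rows that overlap a factor or lie nearest to it on either side, 14 were tested and 0 were called in the authors' deposited table, with q between 0.0949 and 0.884 and 1 row at an unadjusted p under 0.05. Over all tested rows, 16.2% were called in either direction. The row under 0.05 was Stk3, the nearest gene before Osr2, which stood at 10.01 FPKM in molar and 22.7 FPKM in incisor. BC048602, 3705 bases after Osr2, stood at 0.281 FPKM in molar and 0.0988 FPKM in incisor. On either side of Barx1, Ptpdc1 had 0.913 FPKM in molar against 1.63 FPKM in incisor, while Phf2 had 1.22 FPKM in molar against 0.646 FPKM in incisor.

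Paralogues outside the 9 genes were mostly near 0. Of 11 such genes, 8 were tested, and Lhx2 was called higher in molar, with 2.38 FPKM there and a listed 0 in incisor. That molar level lay under the 99th percentile of the receptor genes. None was called higher in incisor, and none had an unadjusted p under 0.05 in that direction. The call of Lhx2 makes 12.5% of the tested paralogues, against 11.9% toward molar and 4.28% toward incisor over all tested rows. The other 7 tested paralogues were not called, and 9 of the 11 were listed at 0 in incisor. Barx2, the relative of Barx1, stood at 1.18 FPKM in molar and 0.364 FPKM in incisor.

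Among 35 other tested transcription factors of jaw and teeth, 3 were called higher in molar, 3 higher in incisor and 29 were not called. The share was 8.57% in each direction, against 11.9% toward molar and 4.28% toward incisor over all tested rows. Higher in molar were Dlx5, a distal-less factor of the lower jaw and of bone-forming cells (131 FPKM in molar, 3.91 in incisor), Meis2 (2.501 in molar, 0.0319 in incisor) and Tfap2b (1.09 in molar, a listed 0 in incisor). The molar values of Meis2 and Tfap2b lay under the 99th percentile of the receptor genes. Those higher in incisor included Alx4, a homeodomain factor of the midface (0.306 FPKM in molar, 6.91 in incisor), and Sox9 (10.6 in molar, 31.2 in incisor). The most abundant gene of the list, Dlx4, had 90.6 FPKM in molar against 113 in incisor, without a call. Dlx1 and Dlx2, which mark the molar end of the embryonic jaw with Barx1, stood at 3.11 and 2.95 FPKM in molar and at 4.88 and 2.61 FPKM in incisor, neither of them called.

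Genes listed as signals before the 9 factors were called at about the shares of all tested rows (11.9% toward molar, 4.28% toward incisor). Bmp2, Bmp4 and Ptch1 stand both in this list and in that of reported responders below. Of 22 tested ligands, receptors and transducers, Bmp2 (26.7 FPKM in molar, 9.68 in incisor) and Fgf4 (2.56 in molar, 0.139 in incisor) were called higher in molar and Ptch1, the Hedgehog receptor and target, higher in incisor (2.59 in molar, 13.6 in incisor). The molar value of Fgf4 lay under the 99th percentile of the receptor genes. Bmp4, which Msx1 and Pax9 keep active in the mouse tooth bud, stood at 34.8 FPKM in molar and 49.2 FPKM in incisor, without a call (q = 0.307 in the authors' deposited table). Fgf8, which starts Barx1, Lhx6 and Lhx8 in the embryonic mouse jaw, was listed at 0 in both tissues. Fgfr1 was the most abundant of the list, at 51.4 FPKM in molar and 46.0 FPKM in incisor.

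Of 20 genes reported to respond to these factors in embryos, 2 were called higher in molar, 6 higher in incisor and 12 were not called. Over all tested rows, 11.9% were called toward molar and 4.28% toward incisor. Bmp2, Bmp4 and Ptch1 were also counted among the signals above. Lef1, Gsc, Runx2 and Dlx2, none of them called, were also counted among the transcription factors of jaw and teeth. The Wnt inhibitors Sfrp2 (13.2 FPKM in molar, 330 in incisor) and Dkk2 (1.14 in molar, 11.00 in incisor) are raised by Osr2 and held down by Msx1 in the mouse tooth bud. Both were called higher in incisor, the tissue with the lower Osr2 and Msx1 values. Whether Osr2 or Msx1 acts on these 2 genes in the sorted cells was not tested. Sostdc1, an inhibitor of BMP and Wnt signals, stood at 35.3 FPKM in molar and 228 in incisor, and the activin subunit Inhba stood at 10.4 in molar and 78.6 in incisor. Sfrp1 (8.46 in molar, 20.3 in incisor) and Ptch1 were the other genes called higher in incisor. Bmp2 and the cell cycle inhibitor Cdkn1c (136 FPKM in molar, 49.8 in incisor) were called higher in molar. Sostdc1 is also a gene of dental epithelium, whose markers were higher in incisor, and the part of that in these values was not tested.

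Cofactors of the 9 factors were called in both directions. Of 17 genes listed, 16 had a row and were tested. The calls were 3 toward molar (18.75%) and 1 toward incisor (6.25%), against 11.9% and 4.28% of all tested rows. The other 12 genes had none. Lmo4, a LIM-only protein that competes with LIM-homeodomain factors for the bridging protein Ldb1, stood at 47.4 FPKM in molar and 7.39 FPKM in incisor. The Ldb1 partner Ssbp2 stood at 28.6 FPKM in molar and 7.74 in incisor, while its relative Ssbp3 stood at 10.3 in molar and 58.8 in incisor. The corepressor Tle2 stood at 17.1 FPKM in molar and 3.76 FPKM in incisor. Ldb1 itself, at 13.8 FPKM in molar and 7.89 FPKM in incisor, was not called (q = 0.252 in the authors' deposited table).

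**Figure D4:**
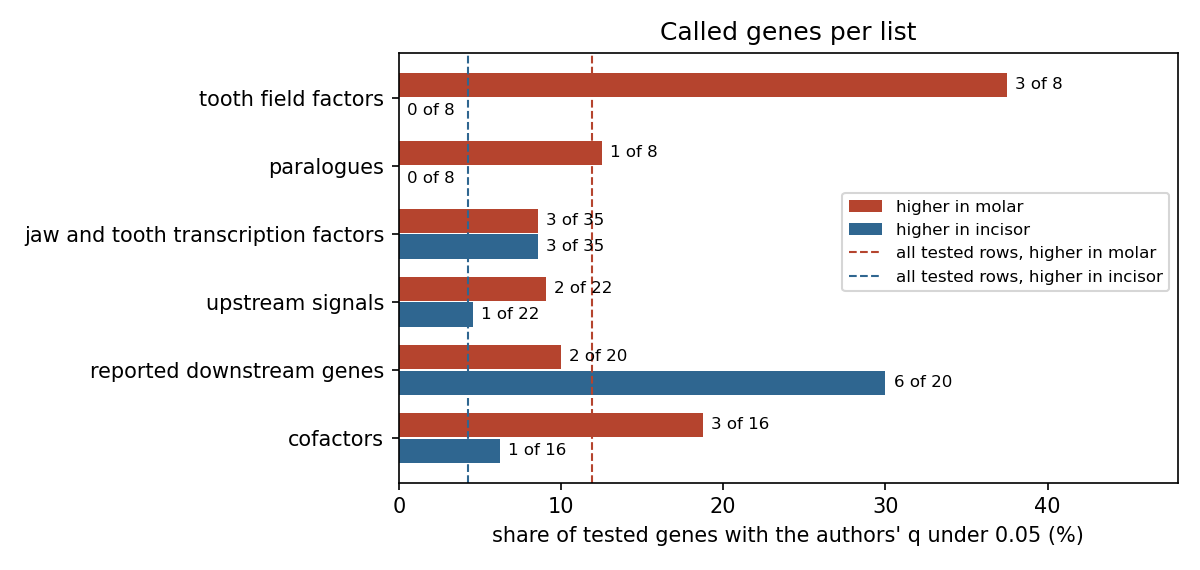
Share of tested genes called higher in molar (red) and higher in incisor (blue) for the 9 tooth field factors and 5 related lists, with counts beside the bars and the shares over all tested rows as dashed lines. The factors have 3 of 8 called higher in molar, and the downstream list has 6 of 20 called higher in incisor.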

How the data were processed

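RNA of FDG-positive cells from molar and incisor pulp was sequenced, 2 libraries per tissue. Per the submitters' processing notes, Trim Galore, HISAT2, edgeR and mm10 were used, with no role or order given. The authors' deposited table gives 1 combined FPKM value per gene and tissue, a log2 fold change of molar over incisor without a pseudocount, a test score, and p-values and q-values. Its columns are laid out as in a Cuffdiff gene table, from which the FPKM unit was read, and no source used here gives the tool, library scaling or annotation. Of 24216 rows, 18770 were tested and 231 join several genes. The authors' own mark of significance reached q = 0.0600, and q under 0.05 was used here. Depth is unknown, so counting intervals are left out.

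Folds, within-tissue ratios, ranks and list counts were computed with Python 3.11.15, pandas 2.3.3 and numpy 2.4.6, and figures were drawn with matplotlib 3.10.9. A repeated symbol was represented by its row of highest mean FPKM. Start positions were moved by 1 base to be 1-based on mm10. No count model was fitted, since the table holds no per-library columns. Transcripts came from GENCODE M21 on GRCm38, the longest protein-coding one per gene, and 32-base words were compared on both strands with all other genes. The functions were tested on simulated data. The members and lists were chosen with earlier results of these data known. The text names the 9 genes, called genes of the related lists with the most abundant gene of each, leading markers, and rows next to the 9 genes. Some items the rule covers are not reported here. Barx2, Alx1, Dlx1, Dlx2, Bmp4, Fgf8, Ldb1 and Cldn5 were added after their values were seen. Lef1, Gsc and Runx2 are named only as genes shared between lists.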

Additional observations from a re-analysis of the deposited data

How the results depend on the processing

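The count of 3 genes called higher in molar was 3 with the authors' mark of significance, with a minimum of 1 FPKM in either tissue, and with p-values adjusted over genes at that minimum, and 2 with q under 0.01, where Msx1 was lost. Barx1 and Osr2 pass the FPKM minimum through molar alone, so their call under it says nothing of stability. The count higher in incisor was 0 in each of these. Over 67 alternatives to 16 results, 13 moved by over 1.5 times and no value changed sign. Many could not have changed sign, so nothing about stability is read from this. A count has no sign, and a pseudocount added to both tissues cannot turn the sign of a gene's ratio. The constant shifts of the gene ratios were smaller than the smallest of these ratios in size, 0.85 for Lhx8. With equal FPKM totals, which lower every log2 ratio by 0.60, Osr2 stood at 7.56, Msx1 at 1.01, Msx2 at 0.50, Pax9 at 0.87, Pitx1 at 1.5004, Lhx6 at -1.46 and Lhx8 at 0.26. Pseudocounts of 1 and 5 gave Osr2 6.25 and 4.33, a pseudocount of 5 gave Pax9 0.59, and pseudocounts of 0.1, 1 and 5 gave Pitx1 0.46, 0.0595 and 0.0122, since a pseudocount shrinks the ratio of low values. Centring on the median of genes above 0 in both tissues lowered log2 ratios by 0.22, and setting them against the mesenchyme markers, whose median was -0.26, raised them, with no value moved by over 1.5 times. Barx1 and Osr1 have no finite ratio to vary. No paired analysis was possible because the table holds 1 combined value per tissue, and leaving out a library was not run for the same reason.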

Other observations

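Size of a difference and the authors' call parted for a larger share of genes toward incisor, where fewer genes had a large difference. Among tested genes above 0 in both tissues with an absolute log2 fold change of at least 5 and at least 10 FPKM in the higher tissue, 126 of 142 that were higher in molar were called in the authors' deposited table, and 7 of 23 that were higher in incisor were. Osr2 and Dlx5 are among the first, and Alx1 (0.150 FPKM in molar, 18.9 FPKM in incisor, q = 0.322 in the authors' deposited table) is uncalled among the second. The spread between libraries behind these q values is not in the table.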
